A study of Sus scrofa with 20 samples.

Results

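The transcriptome of porcine biliary tree stem cells (pBTSCs) was compared with that of CD45-/EpCAM+ cells sorted from pig liver, across all genes. Of the 20 libraries of the series, 9 belong to this comparison by their labels, namely 5 of pBTSCs and 4 of liver CD45-/EpCAM+ cells. Each pBTSC library came from 1 piglet. Piglets 1, 2 and 3 of the H2B-GFP line, which carries histone H2B joined to green fluorescent protein at the actin beta locus, were 1, 1 and 2 days old, and wild-type piglets 1 and 2 were 1 day old. The pBTSC libraries carry the gallbladder as tissue in their labels, and the study describes suspensions made by enzyme digestion of the gallbladder with the bile ducts outside the liver and selected for EpCAM without CD45. Its account of cells for genetic study adds that immunoselected stem/progenitors were then kept for some hours in serum-free medium on low-attachment dishes. There they formed organoids together with early mesenchymal cells, described as angioblasts and precursors of endothelium and stellate cells. Its account of the RNA names isolated cell suspensions, so the step at which RNA was taken is not clear. The liver cells are labelled as lacking CD45, the antigen of blood cells, and as bearing EpCAM, an adhesion molecule of epithelium. Their donors are not stated per library, so no pBTSC library was paired with a liver library. The p-values rest on the spread between libraries within groups, pooled over all 20 libraries and 6 groups of the series. The liver libraries are called here S4, S9, S13 and S19 after the numbers in their labels.

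The biliary tree outside the liver is a duct lined by tall epithelium. Its wall holds peribiliary glands, mucus-making glands that are described as a niche of stem cells, within a coat of fibroblasts, smooth muscle, vessels and nerves. In the liver, EpCAM is borne by bile duct cells and by hepatic progenitors, and in the perinatal period hepatocytes share the organ with blood-forming cells. Hepatocytes make the plasma proteins, clotting factors and bile acids, while the sinusoids are lined by scavenger endothelium, Kupffer cells and stellate cells, which store vitamin A.

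The values are normalized counts, that is, read counts scaled for the depth of their library, as deposited. Each library's depth was estimated from its lowest values. It ranged from 801000 to 77800000 reads over the 9 libraries, and wild-type piglet 1 and S13, as well as 1 liver library outside the comparison, fell under 2000000 reads. Taking 3 reads as the least that can be told from 0, the floor was 37.7 normalized counts in wild-type piglet 1 and 77.1 in S13, against 1.92 or less in the other 7. These floors cover counting error only. A 0 in S13 can therefore enlarge the fold change of a gene with low values, and fold changes without the 3 shallow libraries are given where the difference matters. Values are listed below in the order of H2B-GFP piglets 1, 2 and 3, wild-type piglets 1 and 2, and then S4, S9, S13 and S19.

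The antigens of the sort did not separate the groups. EPCAM stood at 2075, 1144, 1364, 1047 and 884 normalized counts in pBTSCs and at 1779, 1760, 1205 and 1241 in the liver cells (log2 fold change -0.24 ± 0.27 SE, limma adjusted p = 0.51). The sign turned with every library rescaled to the same total, to 0.07, and without the wild-type piglets, to 0.01. PTPRC, the gene of CD45, stood at 971, 534, 777, 1455 and 2140 in pBTSCs and at 450, 2460, 3027 and 1364 in the liver cells (-0.48 ± 0.56 SE, adjusted p = 0.53). Blood cell RNA was thus measured in both groups, although both were selected to lack CD45. KRT19, a keratin of bile ducts, was not analysed here because no row carries its name. The libraries are bulk samples, in which fewer cells of a type and less RNA per cell cannot be told apart.

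Genes were tested with limma on log2(normalized count + 1) and a call needed both a fold change above 2 and an adjusted p-value under 0.05. Of the 15576 genes tested, 14.8% were called higher in pBTSCs and 10.3% lower, and 12.1% and 8.74% were called higher and lower with the values of the 5 pBTSC libraries entirely above or below those of the 4 from liver. These percentages are the background for every count below. The lists were chosen with earlier results of these data known, so a share above the background describes a list and does not test it. The programmes are described through 46 gene lists of cell identities, metabolism, stress and signalling, with 894 symbols tested, of which 230 were higher in pBTSCs and 262 lower. Some symbols, such as LRAT, belong to several lists and enter the counts of each. The calls outside the lists numbered 2072 higher and 1341 lower genes. The background was 15.1% higher and 10.9% lower without the 3 shallow libraries, and 12.98% and 9.75% without the wild-type piglets. The median log2 fold change over all genes tested was 0.08. Rescaling each library to the same total shifted the scale by 0.31 (log2) towards pBTSCs, less for genes of low values, raised that median to 0.39 and moved the share of calls that were higher from 59.0% to 72.8%.

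**Figure D1:**
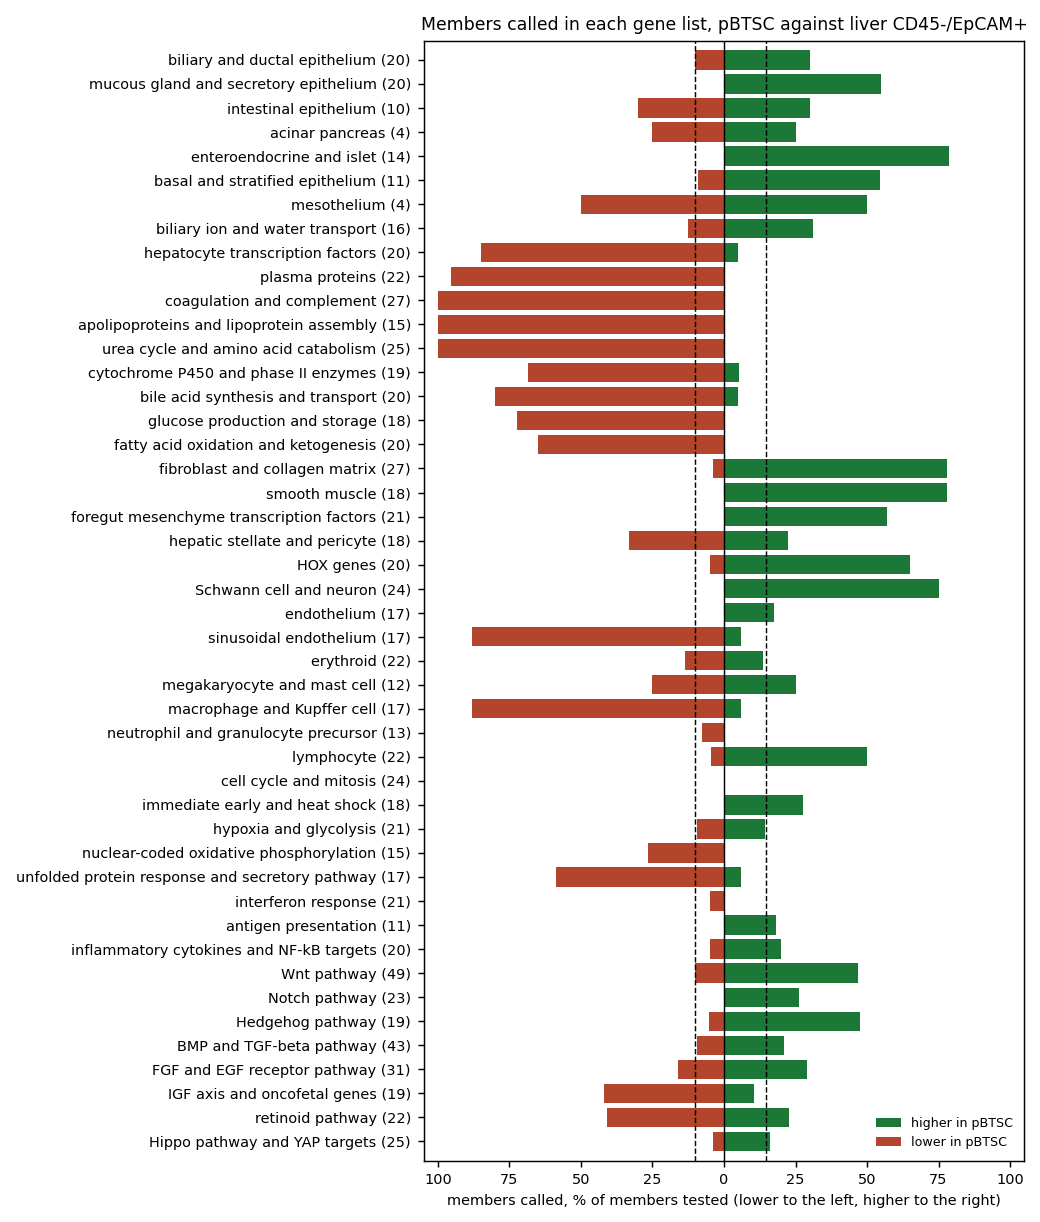
Percent of the tested members of each of 46 gene lists that were called higher (right, green) or lower (left, red) in pBTSCs than in liver CD45-/EpCAM+ cells, with the number of members tested in brackets and dashed lines at the background over all genes, 14.8% higher and 10.3% lower. The lists of coagulation and complement, apolipoproteins and the urea cycle reach 100% lower, and those of enteroendocrine cells, fibroblasts, smooth muscle and Schwann cells with neurons pass 70% higher.

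Genes common to ductal epithelium were much closer between the groups than those of secretory glands. Of 20 tested genes of biliary and ductal epithelium, 6 were higher in pBTSCs, 2 were lower and 12 passed neither way, with a median log2 fold change of 0.32. SPP1, or osteopontin, a secreted phosphoprotein of bile duct cells, stood at 51735, 28688, 44052, 29923 and 13614 in pBTSCs and at 3482, 3694, 2725 and 3846 in the liver cells. The groups did not overlap, and the log2 fold change was 3.16 ± 0.30 (SE, adjusted p = 4.4e-07). The membrane mucin MUC1 was at 2970, 697, 1429, 2411 and 834 against 150, 113, 77.1 and 187 (3.50 ± 0.38 SE). PROM1, a stem and progenitor surface glycoprotein, rose by 1.61 ± 0.32 (SE). In the other direction, the tight junction gene CLDN4 stood at 1852, 1866, 834, 666 and 624 in pBTSCs and at 6289, 3404, 2648 and 2580 in the liver cells (-1.74 ± 0.42 SE). The epithelial cadherin CDH1 fell by 1.21 (SE 0.28), although H2B-GFP piglet 1, at 6839, lay above S13, at 6824.

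Genes of mucous glands were among the largest rises of all genes. In their list 11 of 20 tested members were higher in pBTSCs and 0 were lower, all 11 with no overlap between the groups. TCN1, a vitamin B12 carrier of gland secretions, stood at 32545, 25476, 22245, 22484 and 11321 in pBTSCs and at 83.2, 122, 0 and 106 in the liver cells. Its log2 fold change of 9.38 ± 1.04 (SE, adjusted p = 2.4e-06) was 7.69 without the shallow libraries, since S13 lists it at 0. The gel-forming mucin MUC5B was at 18979, 4355, 7445, 12615 and 4974 against 83, 45.2, 0 and 35.4. AGR2, a disulfide isomerase needed to fold mucins, reached 11395, 3779, 4883, 7259 and 3179 against 46, 69.2, 27.9 and 65.4 (6.77 ± 0.45 SE, adjusted p = 1.2e-08). OLFM4, a secreted marker of crypt and gland progenitors, differed among the piglets as well, at 7201, 3674 and 8254 in the H2B-GFP line and 880 and 434 in the wild-type piglets, against 1.54 or less in every liver library. ERN2, the stress sensor of mucus-making cells, stood at 738, 351, 398, 463 and 254 against 30.9, 14.7, 0 and 14.2 (5.47 ± 0.89 SE). DUOX2, an oxidase of mucosal surfaces, and GPX2, a glutathione peroxidase of gut epithelium, were among the 15 largest rises of all genes, with log2 fold changes of 8.01 ± 1.04 and 7.55 ± 0.80 (SE). Their lowest pBTSC values, 140 and 118, were both those of H2B-GFP piglet 2, still above the highest liver values of 10.4 and 5.65.

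Markers of hormone-making epithelium were also higher. Of 14 tested enteroendocrine and islet genes, 11 were higher in pBTSCs and 0 were lower, with a median log2 fold change of 3.09. The levels were low, and with all values under 77.1, the highest floor, raised to it only 3 of the 11 remained higher. CHGA, a granin of hormone granules, stood at 1025, 702, 856, 214 and 134 in pBTSCs and at 2.8, 1.69, 0 and 5.18 in the liver cells (7.31 ± 0.69 SE). SCG2, another granin, was at 447, 117, 261, 152 and 248, while all liver libraries were at or under 3 reads, so the pBTSC median was at least 146-fold higher than the level that 3 reads stand for in the deep libraries of the other group, taking the highest such level. SCG3 ran opposite to CHGA among the piglets, at 474, 625 and 802 in the H2B-GFP line and 1895 and 1607 in the wild-type piglets, against 66.8 to 106 in the liver cells. Granins are made by nerves as well as by hormone cells, and neuronal genes moved with this list, as given below. Their part in the result was not tested.

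Other epithelial lists split. Basal and stratified epithelium had 6 of 11 tested genes higher, among them ITGB4 and COL17A1, parts of the anchors of basal cells to the basement membrane. ITGB4 stood at 6092, 7560, 5833, 7954 and 5749 in pBTSCs and at 889, 740, 1003 and 1911 in the liver cells (2.63 ± 0.27 SE, adjusted p = 1.1e-06). TP63, the transcription factor that defines basal cells, went the other way, at 11.6 to 29.5 in pBTSCs and 57.1 to 218 in the liver cells (-2.27 ± 0.55 SE). Of 10 tested genes of intestinal epithelium, 3 were higher and 3 lower. LGALS4, a galectin of intestinal epithelium, was at 147, 14.98, 77.4, 339 and 70.5 in pBTSCs and at or under 3 reads in every liver library, or at least 45.6-fold higher by the measure used for SCG2. KRT20, a keratin of differentiated gut and gallbladder epithelium, stood at 771, 120, 573, 1494 and 894 against 3.92, 1.13, 0 and 0.941 (8.12 ± 0.67 SE). The 3 lower genes, FABP1, APOA4 and ANPEP, are also made by hepatocytes. Biliary ion and water transport had 5 of 16 tested genes higher and 2 lower. The anion exchanger SLC26A3, which takes up chloride and is outside the list, varied widely among the piglets, at 582, 3.61, 139, 1406 and 683 against 2.24 or less (7.02 ± 1.18 SE). Within the list, SLC9A3, a sodium/hydrogen exchanger that lets epithelium take up sodium, stood at 2089, 247, 709, 2207 and 1113 against 7.54, 7.08, 45.6 and 2.95 (6.53 ± 0.77 SE). SCTR, the secretin receptor, which makes bile ducts secrete, fell by 1.62 (SE 0.34), at 353 to 1549 in pBTSCs and 2028 to 3226 in the liver cells. AQP1, a water channel of ducts and vessels, rose by 1.78 ± 0.43 (SE), but S19, at 9734, lay above H2B-GFP piglet 3, at 8867. Of 4 tested mesothelial genes 2 were higher and 2 lower, and of 12 genes of the acinar pancreas in the table only 4 passed the filter on low values, with 1 higher and 1 lower. WT1, a factor of mesothelium, was at 69.7 to 216 in pBTSCs and at 28.2 or less in the liver cells, whereas UPK3B, an uroplakin of mesothelium, was at 15.4 or less against 27.4 to 77.1.

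**Figure D2:**
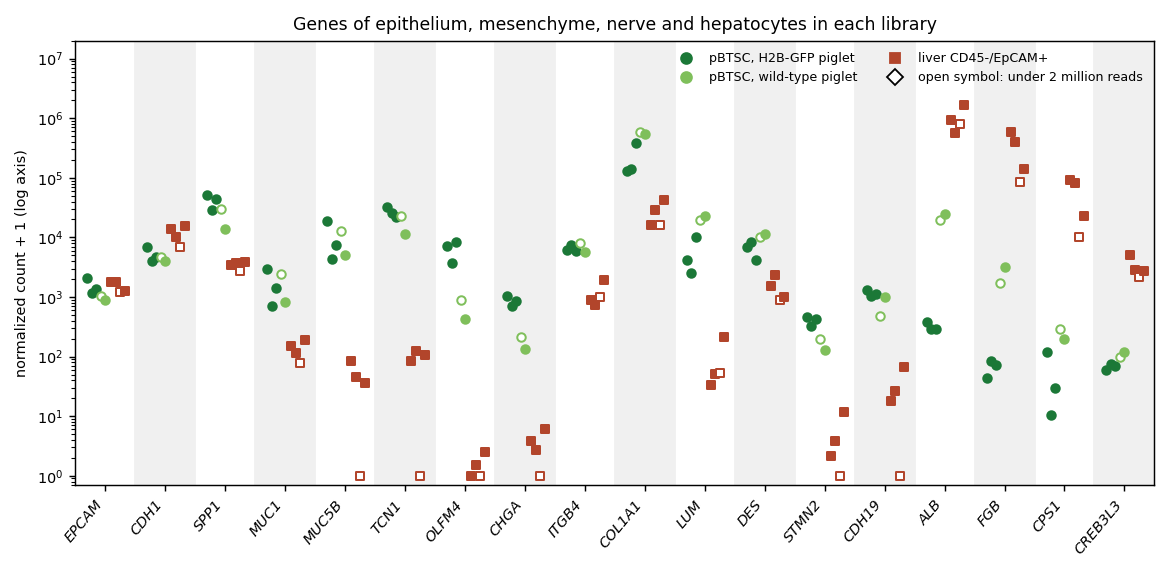
Normalized count + 1 on a log axis for 18 genes of epithelium, mesenchyme, nerve and hepatocytes, 1 point per library, with pBTSCs as circles (dark green H2B-GFP, light green wild-type) and liver CD45-/EpCAM+ cells as red squares, open where the library has under 2000000 reads. EPCAM overlaps between the groups, MUC5B, OLFM4 and STMN2 lie far apart, and ALB and FGB are higher in the wild-type than in the H2B-GFP piglets but below every liver library in both.

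The hepatocyte programme was lower in pBTSCs in its regulators and in its products. Of 20 tested hepatocyte transcription factors, 17 were lower, all 17 with no overlap, 1 was higher and 2, PROX1 and ONECUT2, passed neither way. CREB3L3, an activator of hepatic lipid and acute-phase genes, stood at 58.9, 75.5, 69.5, 95.6 and 120 in pBTSCs and at 5158, 2786, 2153 and 2700 in the liver cells (-5.20 ± 0.25 SE, adjusted p = 4.2e-10). ATF5, a stress-linked factor abundant in hepatocytes, was at 223, 251, 161, 415 and 776 against 25349, 9985, 11965 and 14580 (-5.54 ± 0.39 SE). NR0B2, a nuclear receptor that represses bile acid synthesis, was at 0.636 to 12.6 against 129 to 402. FOXA3 was at 31.6 to 48.3 in the 4 deep pBTSC libraries, at 0 in wild-type piglet 1 and at 324 to 1019 in the liver cells. TBX3, a T-box factor of the early liver bud, was the exception, at 996 to 1169 in pBTSCs and 209 to 591 in the liver cells (1.74 ± 0.40 SE, adjusted p = 0.0023).

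Secreted liver proteins fell further than their regulators. Of 22 plasma protein genes 21 were lower, as were 27 of 27 genes of coagulation and complement and 15 of 15 of apolipoproteins and lipoprotein assembly, with median log2 fold changes of -6.79, -6.71 and -6.66 and none of these genes overlapping between the groups. The 1 plasma protein gene that was not called was AFP, at -2.90. Summed over the list, plasma protein genes took from 7.36% to 11.96% of all normalized counts in the liver cells and from 0.0626% to 0.356% in pBTSCs. FGB, the fibrinogen beta chain, stood at 41.9, 84.3, 72.3, 1704 and 3237 in pBTSCs and at 586240, 401160, 85157 and 141560 in the liver cells (-9.73 ± 1.09 SE). F9, clotting factor IX, was at 1.8, 1.87, 0.631, 156 and 250 against 19300, 8673, 5762 and 11423. APOC3, an inhibitor of the clearance of lipid particles, was at 9.94, 15.9, 3.24, 712 and 899 against 78628, 26927, 16836 and 34827 (-9.25 ± 1.23 SE). FETUB, a protease inhibitor of plasma, varied less among the piglets, at 6.8, 6.72, 12.1, 25.1 and 58.5 against 22810, 9010, 9950 and 3261. AFP, the albumin of the fetus, varied widely in both groups, at 8066, 1048, 3856, 12087 and 8054 against 176990, 135080, 82342 and 1004, with S19 below every pBTSC library.

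Some of these hepatocyte values differed between the piglet lines. ALB, FGB, F9 and APOC3, but not AFP, were higher in both wild-type piglets than in each of the H2B-GFP piglets and remained below every liver library. The liver libraries with labels up to S14 and the H2B-GFP piglets share the lower label numbers, and S19 shares the higher numbers with the wild-type piglets, so line and label number cannot be told apart. RNA integrity, as the study lists it, was lower in each H2B-GFP piglet than in wild-type piglet 2. It is not given for wild-type piglet 1 or the liver libraries, and it cannot be told apart from line either. Without the wild-type piglets the median log2 fold changes of plasma proteins and of coagulation and complement were -7.97 and -7.49. A fit with an interaction between cell type and label number, up to S14 or from S15, has S19 as its only liver library from S15, assumed to vary like the others, so it cannot tell label number from that library. It gave an adjusted p under 0.05 for 11 of 15576 genes, and 1398 genes had an unadjusted p under 0.05. Among the genes named here they were APOA2 (adjusted p = 0.0169), ALB (adjusted p = 0.0169) and FABP1 (adjusted p = 0.0254). APOA2 was lower in pBTSCs by 11.96 on the log2 scale among labels up to S14 and by 5.56 among labels from S15.

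The metabolic pathways of hepatocytes were lower too. All 25 tested genes of the urea cycle and amino acid catabolism were lower, with a median log2 fold change of -7.81. CPS1, which makes carbamoyl phosphate for urea, stood at 119, 9.6, 28.8, 290 and 197 in pBTSCs and at 93371, 80606, 10230 and 22892 in the liver cells (-8.95 ± 0.89 SE). HPD, of tyrosine breakdown, was at 1.4, 4.29, 6.5, 91.3 and 78 against 27536, 17941, 2761 and 5589. S13 and S19 thus had lower values of both genes than S4 and S9. Glucose production and storage had 13 of 18 tested genes lower and 0 higher, and fatty acid oxidation and ketogenesis 13 of 20 and 0. G6PC, which releases free glucose, was at 2.72, 2.84, 2.54, 138 and 173 against 8785, 24166, 4550 and 10131 (-9.23 ± 1.06 SE). ACSL1, which activates fatty acids, was at 707 to 1282 in pBTSCs and 16144 to 48819 in the liver cells (-4.65 ± 0.31 SE, adjusted p = 1.4e-08).

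Genes of bile acid handling were mainly lower. Of 20 tested genes 16 were lower and 1 was higher. ABCB11, the bile salt export pump of hepatocytes, stood at 0, 1.11, 1.37, 53.5 and 81.6 in pBTSCs and at 3573, 2536, 1337 and 3423 in the liver cells (-8.42 ± 1.01 SE). SLC10A1, which takes bile salts up from blood, fell by 8.35 (SE 0.81), and SLC27A5, which couples bile acids to coenzyme A, by 7.71 (SE 0.88). The exception was ATP8B1, a lipid flippase of apical membranes, at 2316 to 3667 against 779 to 1711 (1.23 ± 0.26 SE), which was not called without the shallow libraries (0.93). Cytochrome P450 and phase II enzymes had 13 of 19 tested genes lower and 1, CYP2J34, higher. CYP2E1, which oxidizes ethanol, was at 2.72, 2.58, 5.09, 327 and 766 against 4509, 3348, 3522 and 18037, and CYP2J34 at 307 to 451 against 336, 123, 62.1 and 176 (1.33 ± 0.37 SE, and 0.90 and not called without the shallow libraries).

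Genes of connective tissue rose broadly. In the list of fibroblasts and collagen matrix 21 of 27 tested genes were higher in pBTSCs and 1, FN1, was lower. COL1A1, the main chain of type I collagen, stood at 129440, 141140, 381290, 581220 and 543320 in pBTSCs and at 15856, 28837, 16143 and 43101 in the liver cells (3.63 ± 0.50 SE, adjusted p = 2.2e-05). LUM, a proteoglycan that spaces collagen fibrils, was at 4227, 2514, 10050, 19666 and 22905 against 32.5, 50.2, 51.4 and 208 (7.04 ± 0.66 SE), and MFAP5, of microfibrils, at 705, 1098, 1612, 3986 and 2726 against 1.47, 5.94, 0 and 50.9. ITGBL1, an integrin-like protein of stroma, and HMCN2, a basement membrane hemicentin, were outside the list and among the 15 largest rises of all genes, by 7.07 ± 0.85 and 6.75 ± 0.95 (SE), or 5.95 and 5.42 without the shallow libraries. Both wild-type piglets were above the H2B-GFP piglets for COL1A1, LUM, MFAP5 and DPT, a matrix protein of dermis and fascia. FN1, fibronectin, which hepatocytes also secrete, was at 19998 to 48178 in pBTSCs and 47439 to 150360 in the liver cells (-1.52 ± 0.46 SE). Over the list, these genes took from 2.96% to 10.1% of the normalized counts in pBTSCs and from 0.761% to 1.60% in the liver cells.

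Smooth muscle genes were higher as well, with 14 of 18 tested members called and 0 lower. DES, the intermediate filament of muscle, stood at 6836, 8325, 4155, 10038 and 11200 in pBTSCs and at 1517, 2350, 881 and 994 in the liver cells (2.53 ± 0.43 SE). CNN1, or calponin, was at 6242 to 9428 against 888 to 3214 (2.21 ± 0.31 SE, adjusted p = 3.1e-05). ACTA2, smooth muscle actin, rose by 1.50 ± 0.43 (SE), at 31390 to 89762 against 8254 to 29113. The H2B-GFP piglets were the 3 highest libraries for ACTA2, in contrast to the collagen genes.

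Transcription factors that lay out the gut wall were part of this pattern. Of 21 tested foregut mesenchyme factors, 12 were higher in pBTSCs and 0 lower, or 7 with values raised to the highest floor. NKX2-3, a homeobox factor of gut mesenchyme and spleen, stood at 1282, 608, 780, 904 and 651 in pBTSCs and at 19.1, 21.4, 0 and 53.6 in the liver cells (6.03 ± 0.76 SE, or 4.77 without the shallow libraries). FOXF2, a forkhead factor of gut mesenchyme, was at 404, 37.7, 290, 527 and 816 against 1.12, 0, 0 and 4.7, and PRRX1, of limb and connective tissue, at 691 to 2028 against 42 to 235. HOX genes, which set position along the body axis, had 13 of 20 tested members higher and 1 lower, or 14 and 0 by limma without the shallow libraries. HOXD3 stood at 120, 110, 128, 102 and 126 in pBTSCs and at 2.84, 4, 0 and 7.62 in the liver cells (5.04 ± 0.61 SE). HOXB8 was at 44.5 to 101, with all liver libraries at or under 3 reads, so that by the measure used for SCG2 it was at least 36.1-fold higher. HOXD9, at 51.9 to 252, was at least 51.7-fold higher by the same measure. Only 4 HOX genes remained higher when values were raised to the highest floor, since most lie under the floor of S13.

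Genes of nerves were higher as well, although neither neurons nor Schwann cells are known to bear EpCAM and both preparations were selected for it. Their source was not tested. Of 24 tested genes of Schwann cells and neurons, 18 were higher in pBTSCs and 0 lower, with a median log2 fold change of 4.37. Among the 18 is NCAM1, named after its values were seen. The study counts its protein among the traits of the stem/progenitors, so this gene is not particular to nerves. VIP, a peptide transmitter of gut and gallbladder neurons, was at 1167, 191, 394, 87.9 and 74.8 and was listed at 0 in all 4 liver libraries, or at least 112-fold higher by the measure used for SCG2. STMN2, a tubulin regulator of growing axons, was at 458, 328, 424, 197 and 129 against 1.15, 2.76, 0 and 10.6 (6.48 ± 0.62 SE). CDH19, a cadherin of Schwann cells, was at 1313, 1056, 1115, 477 and 1004 against 16.8, 25.4, 0 and 66.8 (6.14 ± 0.88 SE, or 5.14 without the shallow libraries). The summed level of the list ran from 12499 to 29020 in pBTSCs, with both wild-type piglets lowest, and from 6901 to 9342 in the liver cells. With values raised to the highest floor, 11 genes of the list remained higher.

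Genes common to all endothelium differed little, whereas those of the liver sinusoid were lower in pBTSCs. Of 17 tested pan-endothelial genes 3 were higher, 0 were lower and the other 14 passed neither way, close to the background of 14.8%. PECAM1, the adhesion molecule CD31, stood at 28048, 36576, 28776, 30691 and 34614 in pBTSCs and at 9903, 10163, 10482 and 25978 in the liver cells (1.29 ± 0.29 SE, adjusted p = 0.0020). VWF, a clotting protein stored by the endothelium of large vessels, was at 13150 to 30693 against 2946 to 6062 (2.39 ± 0.28 SE), and EMCN, a sialomucin of veins and capillaries, at 3203 to 3852 against 821 to 2045 (1.70 ± 0.26 SE). In contrast, 15 of 17 tested sinusoidal genes were lower and 1 higher. STAB2, a scavenger receptor for hyaluronan, stood at 40.6, 77.1, 153, 138 and 987 in pBTSCs and at 7793, 17450, 60522 and 22102 in the liver cells (-7.13 ± 0.83 SE, adjusted p = 3.7e-06). OIT3 was at 12.5, 33.6, 47.1, 25.1 and 318 against 3536, 5530, 15321 and 6694, and CLEC4G, a lectin of sinusoids, at 7.45, 29.7, 31.2, 37.7 and 330 against 2656, 4872, 8896 and 7810. Wild-type piglet 2 had the highest pBTSC value of all 3 genes and S13 the highest liver value.

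Genes of mural cells moved in both directions. Of 18 tested stellate cell and pericyte genes 4 were higher and 6 lower. The higher ones included CSPG4, the proteoglycan NG2 of pericytes, at 3632, 6348, 4744, 2549 and 2184 against 1126, 1257, 951 and 1641 (1.56 ± 0.34 SE), and NOTCH3, the Notch receptor of vascular smooth muscle, at 7337 to 16064 against 2519 to 6786 (1.52 ± 0.33 SE). LRAT, which makes the stored esters of vitamin A in stellate cells, was at 2.14, 2.2, 3.33, 13.2 and 7.03 in pBTSCs and at 176, 1323, 754 and 918 in the liver cells (-6.86 ± 0.60 SE). COLEC10, a collectin of stellate cells, was at 112 to 268 against 3986 to 8212 (-5.29 ± 0.26 SE, adjusted p = 4.2e-10), and LHX2, a factor that restrains stellate activation, at 1.62 to 26.3 against 169 to 354. The groups did not overlap for these 5 genes. CYGB, chosen after its values were seen, was higher too, at 499 to 794 against 202 to 322 (1.23 ± 0.23 SE). RELN, NGFR, PTH1R and HAND2, named on the same ground, were among the members that passed neither way. The genes given with values therefore do not stand for the whole list.

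Macrophage genes were lower in pBTSCs although PTPRC was not. Of 17 tested macrophage and Kupffer cell genes 15 were lower and 1, LYZ, was higher. CLEC4F, a lectin restricted to Kupffer cells, stood at 8.39, 14.7, 81.5, 37.7 and 573 in pBTSCs and at 855, 2362, 22854 and 9681 in the liver cells (-6.56 ± 1.25 SE). TIMD4, a receptor for dying cells on resident macrophages, was at 29.6, 43.2, 37.1, 109 and 165 against 1426, 2590, 6406 and 1459 (-5.28 ± 0.57 SE, adjusted p = 1.8e-06), and MARCO, a scavenger receptor, at 74.6 to 269 against 1387 to 5475. SIGLEC1 overlapped, with 822 in wild-type piglet 1 and 688 in S4. LYZ, lysozyme, which glands also secrete, was at 369 to 1069 against 51.4 to 384 and was not called without the shallow libraries (1.72).

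Called lymphocyte genes were mainly higher in pBTSCs, at low levels. Of 22 tested lymphocyte genes 11 were higher in pBTSCs and 1 was lower, but with values raised to the highest floor 0 were higher by limma. TRAC, the constant chain of the T cell receptor, stood at 58.5, 37, 76.4, 139 and 276 against 8.67, 20.2, 0 and 23.4 (3.46 ± 0.88 SE, or 2.29 without the shallow libraries). JCHAIN, which joins the antibody units made by plasma cells, rested on the wild-type piglets, at 116, 25.5, 59.3, 2715 and 8213 against 69.6, 21.8, 0 and 56.8, and was not called without the shallow libraries (2.13). In the list of megakaryocytes and mast cells 3 of 12 tested genes were higher and 3 lower. MS4A2, of the mast cell IgE receptor, was at 249, 363, 624, 820 and 2344 against 54.4, 126, 229 and 25.6 (2.99 ± 0.72 SE), while PPBP, a platelet chemokine, was at 1.81 to 18.8 against 190 to 622 (-5.51 ± 0.68 SE). Erythroid genes had 3 of 22 higher and 3 lower, near the background in both directions. HBB, the beta globin, ranged from 28318 to 125450 in pBTSCs and from 2314 to 41024 in the liver cells, and its rise of 2.25 ± 0.84 (SE) was not called without the shallow libraries. TFR2, the iron sensor shared by hepatocytes and red cell precursors, fell by 5.79 (SE 0.42), at 73.7 to 265 against 3573 to 13483. In the neutrophil list 1 of 13 tested genes was lower and 0 were higher by limma, 1 had an unadjusted p under 0.05, and the summed level ran from 785 to 9201 in pBTSCs and from 750 to 17278 in the liver cells.

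**Figure D3:**
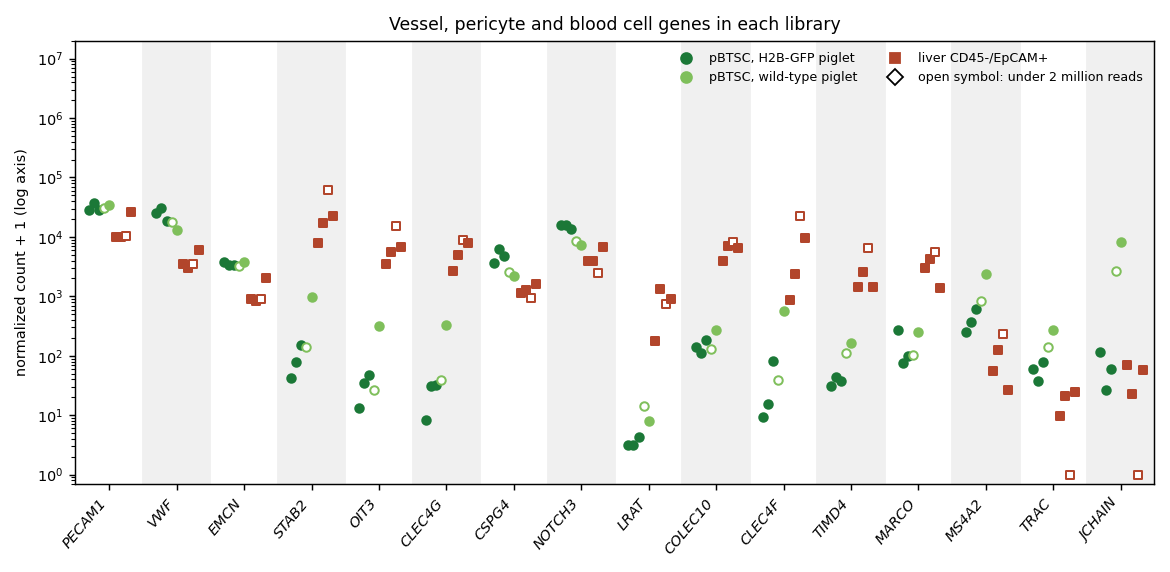
Normalized count + 1 on a log axis for 16 genes of vessels, mural cells and blood cells, 1 point per library, with symbols for pBTSC line, liver sort and depth as in the plot of epithelial and hepatocyte genes. The pan-endothelial genes PECAM1, VWF and EMCN are higher in pBTSCs, the sinusoidal, stellate and Kupffer cell genes STAB2, OIT3, CLEC4G, LRAT, COLEC10, CLEC4F, TIMD4 and MARCO are lower, and JCHAIN is high in the wild-type piglets alone.

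Genes of the cell cycle, the immediate early response and glycolysis were called less often than those of hepatocytes or connective tissue. None of the 24 tested genes of the cell cycle and mitosis was called by limma, with 0 under an adjusted p of 0.05 and 1, RRM2, under an unadjusted p of 0.05. The summed level ran from 12598 to 24617 in pBTSCs and from 8537 to 43461 in the liver cells, so the pBTSC range lay within that of the liver. Of 18 immediate early and heat shock genes 5 were higher and 0 lower. The summed level of this list did not overlap, at 298090 to 452610 in pBTSCs and 233940 to 263440 in the liver cells. EGR3 stood at 853, 729, 545, 668 and 525 in pBTSCs and at 122, 156, 28.1 and 165 in the liver cells (2.74 ± 0.49 SE), and JUNB, of the AP-1 factor, rose by 1.26 ± 0.19 (SE). In the list of hypoxia and glycolysis 3 of 21 genes were higher, namely PFKP, EGLN3 and NDRG1, and 2 were lower, near the background. PFKP, the platelet form of phosphofructokinase, was at 1670 to 2223 against 421 to 530 (1.90 ± 0.14 SE, adjusted p = 3.1e-08).

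Genes of the secretory machinery were mainly lower where they were called. Of 17 tested genes of the unfolded protein response and secretory pathway, 10 were lower in pBTSCs and 1, ERN2, was higher. HSPA5, the main chaperone of the endoplasmic reticulum, stood at 17540, 16371, 15419, 14183 and 12057 in pBTSCs and at 80389, 60540, 36736 and 29014 in the liver cells (-1.67 ± 0.33 SE, adjusted p = 6.7e-04). PDIA4, a disulfide isomerase, was at 6326 to 8371 against 15594 to 36296 (-1.63 ± 0.29 SE). With libraries rescaled to the same total, 6 of the 10 remained lower. Oxidative phosphorylation had 4 of 15 nuclear-coded genes lower, among them SDHA and SDHB of succinate dehydrogenase, by 1.22 (SE 0.18) and 1.21 (SE 0.20). By the same rescaling limma called 0 of the 15. Inflammatory cytokines had 4 of 20 genes higher and 1 lower, with LIF, a cytokine of stromal cells, at 292 to 489 against 51.4 to 89.7 (2.58 ± 0.77 SE).

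Interferon-response genes separated libraries within each group instead of the groups. Of 21 tested genes 1, STAT2, was lower, and 0 were higher by limma, with the same gene alone under an unadjusted p of 0.05. The summed level was 16252, 11899, 12765, 109450 and 26648 in pBTSCs and 15083, 22062, 24653 and 117400 in the liver cells, so wild-type piglet 1 and S19 each stood far above the rest of their group. Antigen presentation had 2 of 11 tested genes higher, CIITA and SLA-DQB1, of the class II genes, neither of which was called without the shallow libraries, and its summed level was likewise highest in the wild-type piglets and in S19.

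**Figure D4:**
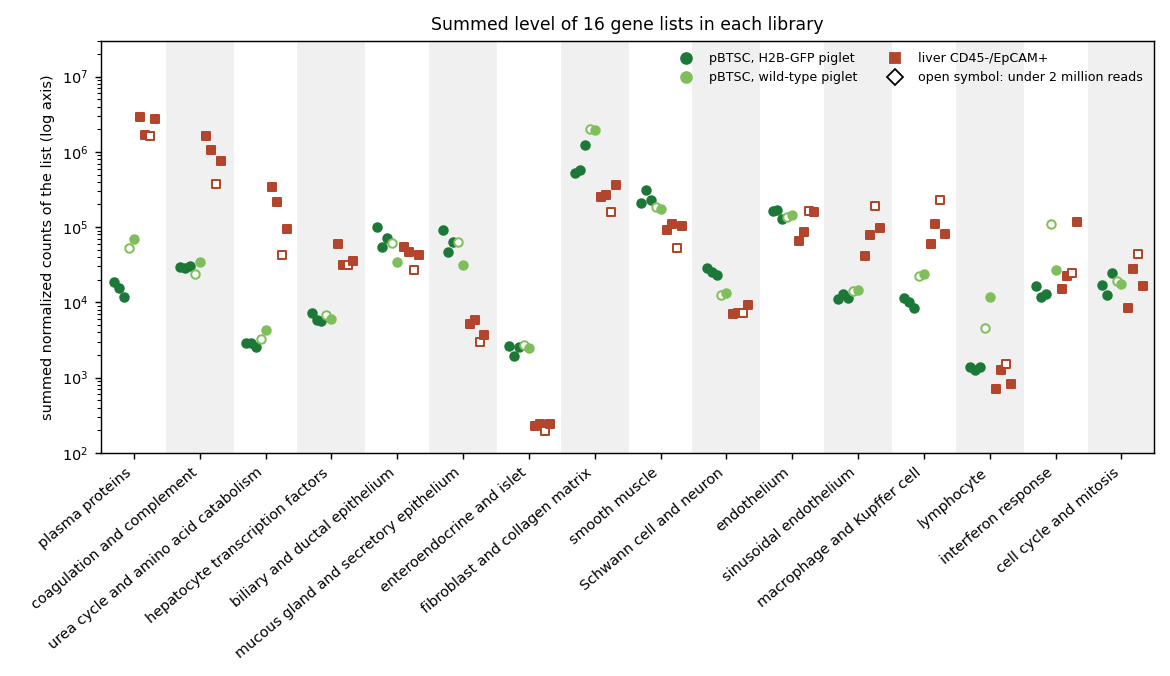
Summed normalized counts of 16 gene lists in each library on a log axis, with pBTSCs as circles (dark green H2B-GFP, light green wild-type) and liver CD45-/EpCAM+ cells as red squares, open where the library has under 2000000 reads. Plasma protein genes range from 11627 to 69281 in pBTSCs and from 1625500 to 2886200 in liver cells, mucous gland genes from 31460 to 91209 and from 2968 to 5815, and interferon-response genes are highest in wild-type piglet 1 and S19.

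The Wnt pathway was the longest of the signalling lists. Wnt ligands act on Frizzled receptors to steady beta-catenin, and secreted SFRP, DKK and WIF1 proteins bind them or their receptors. Of 49 tested members 23 were higher in pBTSCs and 5 were lower. Among the secreted binders, SFRP2 stood at 447, 1292, 1718, 1156 and 918 in pBTSCs and at 12.9, 48.5, 25.7 and 33.9 in the liver cells (5.16 ± 0.78 SE), SFRP4 rose by 4.18 ± 0.46 (SE), and WIF1 was the most variable, at 315, 841, 3071, 980 and 130 against 22.4, 36.7, 0 and 221. The receptor FZD10 was at 157 to 258 against 17.9 or less (4.95 ± 0.81 SE, or 4.09 without the shallow libraries). Of the readouts of Wnt signalling, LEF1, AXIN2 and NKD1, chosen after their values were seen, were higher, by 3.24, 1.34 and 2.19 on the log2 scale, whereas NOTUM, an enzyme that inactivates Wnt ligands, was at 6.72 to 25.1 against 197 to 479 (-4.69 ± 0.38 SE, adjusted p = 9.6e-08). Other readouts in the list are not reported here, so these genes do not stand for all of them. The 5 lower genes were NOTUM, FZD5 and the ligands and agonist WNT2, WNT9B and RSPO3, which liver endothelium is known to make. WNT9B was at 18.2, 109, 32.4, 12.6 and 22.5 against 136, 349, 488 and 350 (-3.35 ± 0.50 SE). WNT2 and RSPO3 are also members of the sinusoidal list given above, so the counts of the Wnt and sinusoidal lists partly rest on the same genes. Other sinusoidal genes, such as STAB2, moved with these, and their part in the result was not tested.

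The called Notch genes were higher, and those of the Hedgehog pathway were higher except for HHIP. Notch receptors bind Jagged and Delta ligands on neighbouring cells, and 6 of 23 tested members were higher and 0 lower. LFNG, a glycosyltransferase that tunes Notch receptors, stood at 1425, 1828, 1207, 1520 and 1402 in pBTSCs and at 226, 401, 694 and 440 in the liver cells (1.84 ± 0.29 SE). The target gene HEY2 was at 816 to 1514 against 269 to 579 (1.60 ± 0.29 SE), and the ligand JAG2 at 2251 to 3565 against 284 to 1853 (1.38 ± 0.47 SE), not called without the shallow libraries (0.82). Hedgehog ligands relieve the hold of Patched receptors on SMO, with GLI factors as effectors. Of 19 tested members 9 were higher, all with no overlap, 1, HHIP, was lower, and 9 passed neither way. The last included GLI1, chosen after its values were seen (-0.28 ± 0.43 SE, limma adjusted p = 0.64). The summed level of the list overlapped, at 9049 to 11980 in pBTSCs and 7596 to 14339 in the liver cells. The co-receptors CDON and BOC both rose by 2.26 (SE 0.29 and 0.37), and GLI3 was at 336 to 464 against 61.6 to 141 (1.85 ± 0.34 SE). HHIP, a decoy that binds Hedgehog ligands and is also a target gene, was at 543, 339, 878, 803 and 657 in pBTSCs and at 3509, 8009, 9573 and 8594 in the liver cells (-3.50 ± 0.36 SE, adjusted p = 1.0e-06).

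Of 43 tested members of the BMP and TGF-beta family 9 were higher and 4 lower, shares near the background of all genes, and 30 passed neither way. Among antagonists that bind BMPs, GREM1 stood at 370, 692, 431, 458 and 339 in pBTSCs and at 1.69, 0, 0 and 9.44 in the liver cells (7.59 ± 0.71 SE, adjusted p = 3.6e-07), and CHRDL1 at 520, 844, 1294, 3082 and 2509 against 65, 47.1, 0 and 103 (5.81 ± 0.98 SE, or 3.98 without the shallow libraries). Of the ligands, GDF2, or BMP9, made in the liver and acting on endothelium, was at 3.83 or less in pBTSCs and at 409, 1254, 1208 and 1004 in the liver cells (-8.72 ± 0.44 SE, adjusted p = 5.3e-10). INHBE, an activin chain of hepatocytes, was at or under 3 reads in every pBTSC library, so by the same measure as for SCG2 it was at least 111-fold lower than in the liver cells. LTBP4, which holds latent TGF-beta in elastic fibres, was at 15945 to 23473 against 2828 to 5646 (2.32 ± 0.21 SE, adjusted p = 2.2e-07).

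Growth factor receptors and their ligands split. Of 31 tested genes of the FGF and EGF receptor pathways 9 were higher and 5 lower. The ligands FGF2 and FGF10 stood at 766 to 931 against 51.4 to 167 (3.21 ± 0.36 SE) and at 25.1 to 85.8 against 7.06 or less (3.90 ± 0.73 SE). The receptor FGFR3 was at 651, 567, 440, 368 and 315 against 3779, 2024, 1347 and 1283 (-2.08 ± 0.33 SE), FGFR2 and FGFR4 were also lower, and so was ETV5, a transcriptional target of FGF signalling, at 253 to 342 against 823 to 2486 (-2.17 ± 0.33 SE). AREG, an EGF receptor ligand, was at 31.7 to 132 against 23.7 or less (4.01 ± 0.80 SE), while EREG, another such ligand, was lower by 1.71 on the log2 scale with overlap between the groups.

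The called genes of the IGF axis and oncofetal list, which also holds hepatocyte products, were mainly lower. Of 19 tested genes 8 were lower, all with no overlap, 2 were higher and 9 passed neither way. The median log2 fold change was -0.34. PEG10, an imprinted placental and fetal liver gene, stood at 1184, 1222, 1561, 934 and 1217 in pBTSCs and at 38634, 26034, 11781 and 4296 in the liver cells (-3.64 ± 0.55 SE). LIN28B, which blocks the maturation of let-7 in fetal cells, was at 12.6 to 26.1 against 364, 381, 103 and 101 (-3.39 ± 0.45 SE). Both were lower in S13 and S19 than in S4 and S9. IGFBP1, a hepatocyte binding protein for IGF, was at 2.04, 1.55, 0, 12.6 and 41.3 against 4674, 8670, 257 and 538. The binding proteins IGFBP6 and IGFBP5 of stromal cells rose instead, by 4.27 ± 0.39 and 3.10 ± 0.37 (SE).

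Retinoid genes were called in both directions. Of 22 tested members 9 were lower and 5 higher, or 5 and 5 with libraries rescaled to the same total. RBP4, which carries retinol in blood, stood at 436, 562, 220, 453 and 1045 in pBTSCs and at 57858, 28984, 20493 and 35562 in the liver cells (-6.11 ± 0.39 SE), and BCO1, which cleaves beta-carotene, at 31.1 to 59.1 against 965 to 1601 (-4.81 ± 0.25 SE, adjusted p = 6.5e-10). RXRG, a retinoid receptor of neural crest and muscle, was at 272, 209, 208, 117 and 153 against 12.5, 14.4, 0 and 12 (4.68 ± 0.81 SE, or 3.89 without the shallow libraries). Hippo pathway genes and targets of YAP had 4 of 25 members higher and 1 lower, near the background, or 7 higher without the wild-type piglets. VGLL3, a cofactor of TEAD, was at 590 to 911 against 60 to 158 (3.02 ± 0.33 SE), and the YAP target ANKRD1 was lower, at 83.3 to 330 against 468 to 1982 (-2.01 ± 0.50 SE).

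**Figure D5:**
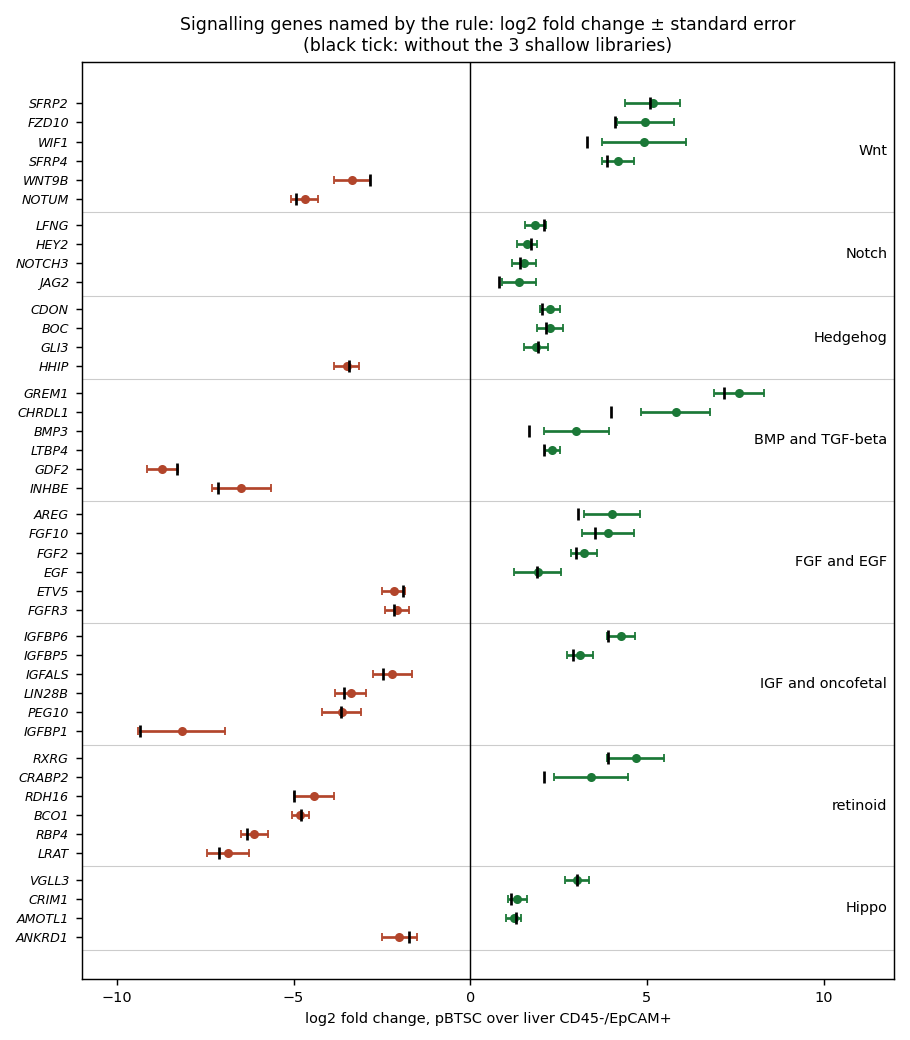
Log2 fold change of pBTSCs over liver CD45-/EpCAM+ cells on log2(normalized count + 1) for 42 named signalling genes grouped by pathway, as points with the standard error as bars, and the fold change without the 3 shallow libraries as black ticks. GREM1 and GDF2 of the BMP pathway are 7.59 and -8.72, and the ticks of CHRDL1, WIF1 and BMP3, at 3.98, 3.30 and 1.67, lie nearer to 0 than the points.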

How the data were processed

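Poly(A) RNA of sorted pig cells was sequenced after TruSeq Stranded mRNA preparation. The deposited table holds normalized counts, a signal the authors made from read counts with size factors, and the submitters' notes name STAR, Salmon and DESeq2, while versions, genome build and annotation are not given in the sources used here. Whole reads could not be recovered, since 56.0% to 81.6% of the low values, depending on the library, fell within 0.05 reads of a whole number, so depth is an estimate and no count test was run.

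All 20 libraries and 6 groups entered 1 fit with limma 3.58.1 in R 4.3.3, with a mean-variance trend, on log2(normalized count + 1), over the 15576 genes with at least 10 in at least 2 libraries (2287 of them without a gene name). The added 1 makes log2 fold changes understate the change of low genes, whereas a 0 in S13 can enlarge it, as stated above. P-values were adjusted by the Benjamini-Hochberg method over all genes tested, and genes were called at an adjusted p under 0.05 and a log2 fold change above 1 in size. The samples, gene lists and members were chosen with earlier results of these data known. Of 1050 listed symbols, 944 had a row and 894 were tested.

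Named genes were, by a fixed rule, the 15 largest rises and falls with no overlap and a median of at least 500 in the higher group, up to 4 called members of each list in its main direction and up to 2 in the other with a median of at least 50, and the defining genes. A subset of these is described, and a gene outside the rule was named after its values were seen: AFP, PROX1, ONECUT2, RRM2, EREG, FGFR2, FGFR4, FZD5, WNT2 and RSPO3, besides those marked in the text. On data simulated for this comparison with 200 changed genes, the fit recovered 191 with 4 false calls. The sizes of change and the spread used in the simulation are not stated here. These figures therefore describe the simulated data only and do not give the recovery or false calls among the real genes. Alternatives changed the pseudocount, scaling, filter, samples and model. Some members are not reported here. Planned counts of promoter motifs were not run, and sequences and positions were not used here.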

Additional observations from a re-analysis of the deposited data

Results flagged for a closer look

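The libraries of each group were compared on the log2 scale for 164 genes named in the text and for the summed levels of the 46 lists, 420 groups of 4 or 5 values in all. In 25 of them the highest or the lowest library lay further from the others than Dixon's 95% critical value, and chance flags about 1 in 20.

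Of the 25, 14 were in the shallow libraries. S13 stood apart at 0 normalized counts for TCN1, BMP3, CHRDL1, FGF10, HOXD9, LGALS4, RXRG and WT1, and at 28.1 for EGR3, all under its floor of 77.1. Wild-type piglet 1 stood apart at 0 for FOXA3, 25.1 for FGF10 and 12.6 for INHBE, under its floor of 37.7, and at 477 for CDH19 and 313 for RSPO3.

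S19 stood apart from the other liver libraries with 25978 normalized counts of PECAM1, 2045 of EMCN and 1004.5 of AFP, and its Schwann cell and neuron genes summed to 9342. S4 stood apart with 421 of PFKP, 0.565 of SCG2 and 2587 of PROX1. Among pBTSCs, H2B-GFP piglet 1 had 6242 of CNN1, H2B-GFP piglet 3 had 31.7 of AREG, the enteroendocrine and islet genes summed to 1955 in H2B-GFP piglet 2, and the apolipoprotein genes to 37011 in wild-type piglet 2.

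For 3 genes of hepatocyte products the interaction fit gave an adjusted p under 0.05, with S19 as the only liver library from S15. The difference between pBTSCs and liver cells was smaller in size among labels from S15 than among labels up to S14 by 5.0 on the log2 scale for ALB, by 6.4 for APOA2 and by 5.59 for FABP1. The labels from S15 hold 2 pBTSC libraries, both of wild-type piglets, and 1 liver library, so label number, piglet line and the lone S19 cannot be told apart.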

How the results depend on the processing

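The fit called 3905 genes, 2302 higher and 1603 lower. With all values raised to the highest floor, that of S13, 1371 were higher, the change being built into a limit that hides differences at low levels. With no fold change threshold 6029 genes passed, 3456 higher and 2573 lower. The other settings left each count within 1.5 times, and no called gene changed sign. Rescaling to the same total gave 3308 higher and 1237 lower genes. EPCAM, which was not called, turned to 0.0671 (limma adjusted p = 0.853) with the same total and to 0.0082 (adjusted p = 0.987) without the wild-type piglets, a setting added after the data were seen. Leaving out 1 library at a time gave from 3611 to 4338 called genes, from 2053 to 2585 higher, from 1449 to 1753 lower and from 3190 to 3907 called without overlap, and the top of the first range was without S19. Of 207 called genes that the naming rule gave, 181 remained called with values raised to the floor, 187 without the wild-type piglets and the shallow libraries, 190 without S13, and from 190 to 207 under the other settings. No paired analysis was possible because the labels name no donor for the liver libraries, and replicate numbers follow the order of the samples. Depth limits S13 and wild-type piglet 1 to levels above 77.1 and 37.7 normalized counts. DESeq2 and edgeR were not run, because the table holds no counts.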

Other observations

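Among the genes of liver secretion, 4 had pBTSC values of at least 1656 normalized counts in every library and log2 fold changes smaller in size than the medians of their lists. They were chosen after their values were seen. APOA1, the main protein of high-density lipoprotein, was at 23518, 27035, 23582, 22643 and 27517 in pBTSCs, in the order of piglets used above, and at 153230, 62891, 47969 and 70935 in S4, S9, S13 and S19 (-1.61 ± 0.36 SE, limma adjusted p = 0.0019). Its values thus lay close together in the piglets whose ALB ran from 287 to 25087. Complement C3 was at 11126 to 20679 in pBTSCs and 79341 to 241460 in the liver cells, CFI, which cleaves C3b, at 2353 to 5002 and 7282 to 17705, and C4BPA, which binds C4b, at 1656 to 3174 and 3655 to 13859. Each of these 3 genes had its lowest value in a wild-type piglet, whereas ALB had its highest values there.

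The interferon-response genes were high together in wild-type piglet 1 and S19, again a pattern chosen after the values were seen. MX1, a GTPase that blocks virus growth, stood at 569, 261, 238, 8582 and 1125 in pBTSCs and at 229, 982, 437 and 8522 in the liver cells. OAS2, an RNA sensor, was at 13133 in wild-type piglet 1 and 13254 in S19 against 563 to 3265 in the other libraries, and IFI6, a mitochondrial interferon-induced protein, at 12508 and 13111 against 245 to 1563. The donor of S19 is not stated.

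MPO and ELANE, genes of neutrophil precursors chosen after their values were seen, differed between libraries within the groups and were not called between them. MPO, the peroxidase of neutrophil granules, was at 40.4, 445, 21.8, 12.6 and 26.0 in pBTSCs and at 934, 1250, 181 and 1.89 in the liver cells, and ELANE, the elastase of the same granules, at 122 in H2B-GFP piglet 2 and at 324, 321, 49.4 and 0.452 in the liver cells. H2B-GFP piglet 2 was the highest pBTSC library and S19 the lowest liver library for both genes.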
